A study of Mus musculus with 10 samples.

Results

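The genes that encode antibodies were followed in RNA-seq libraries of whole mouse aortae, from the constant region genes that define the antibody class to the variable segments that form the antigen-binding site, together with Jchain, which links secreted antibody units into larger complexes. The genes were chosen by their symbols (heavy chain, kappa and lambda segments, and Jchain) and by having at least 1 count in any of the 10 libraries. Of 394 rows with such a symbol, 163 had a count and formed the set, out of 28011 genes with a count in the whole table. The other 231 rows had 0 counts in every library, while just inside this limit 34 genes had a total of 1 count and 16 had a total of 2. The rule used the counts of both ages together and not the difference between them, but it was set with earlier results of these data known. Of the 142 variable segments in the set, 76 had counts in old mice only and 7 in young mice only. Over all libraries, 57 of the 163 genes reached 10 counts and 9 reached 100 counts.

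Aortae were taken from 10 male C57BL/6 mice, of which 5 were young (14.5 weeks) and 5 were old (92.5 weeks), with 1 library per mouse and with no genetic change or drug treatment named for either group. The mice of both groups were perfused with saline, and the fat around the vessel was removed before RNA was extracted from the whole vessel. Total counts on genes ran from 19640401 to 22886153 per library, and edgeR called 1676 of 14614 tested genes at an adjusted p below 0.05. Smooth muscle markers were abundant in every library, with a summed normalized count between 736475 and 945758 over 7 genes. Young mouse 3 stood apart from the other young mice in lambda light chain genes and old mouse 3 from the other old mice in B cell genes, and the main results that rest on them are given with and without them. Since the RNA came from bulk tissue, more cells of a type and more RNA per cell cannot be told apart anywhere in what follows.

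An antibody consists of heavy chains and light chains. In each developing B cell, a variable, a diversity and a joining segment are joined in the DNA of the heavy chain locus, a variable and a joining segment are joined in the kappa or lambda light chain locus, and the result is spliced to a constant region. Naive B cells carry the mu and delta constant regions (Ighm, Ighd), and activated cells can switch to gamma, epsilon or alpha, while plasma cells secrete antibody and carry far more immunoglobulin mRNA than resting B cells. Since all daughters of a B cell carry the same rearrangement, the spread of counts over variable segments bears on how evenly the contributing cells are divided. B cells are sparse in a healthy artery, where they lie mainly in the adventitia and the surrounding fat. 

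The antibody genes together took 749, 304, 797, 358 and 232 counts in young mice 1 to 5, and 611, 2366, 3575, 1393 and 659 counts in old mice 1 to 5. As a share of each library this was 10.6 to 36.6 CPM among the young and 28.0 to 156 CPM among the old mice, so that the transcripts were rare at both ages. Old mice 2, 3 and 4 lay above every young mouse, whereas old mice 1 and 5 lay within the range of the young. The mean sum of normalized counts was 489.9 ± 267.9 (SD, n = 5) for the young and 1701 ± 1211 for the old aortae, a ratio of 3.47. Without Ighm, which held most of the counts of the young aortae, the ratio was 6.31. With young 3 and old 3 both left out, these ratios were 3.13 and 6.67. With single mice left out, the ratio of the whole sum was between 2.64 without old 3 and 4.11 without young 3, and that without Ighm between 4.45 without old 3 and 9.46 without young 3. The sums are given without a test.

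Most of the set was too sparse for the fit across all genes. The low-count filter kept 4 of the 163 genes (Ighm, Ighd, Ighg2c and Igkc), of which 2 were called higher in old aortae, where 6.48% of all 14614 tested genes were called higher. Without the filter, 4 genes were called higher (Jchain, Ighg2c, Ighv14-4 and Igkv1-110), where 3.4% of 28011 genes were. Only Jchain and Ighg2c had every old mouse above every young mouse, compared with 3.09% of all genes with a count. For the 12 constant region genes with a count and Jchain, an exact two-sided permutation test of the difference in mean normalized count was also run, and 4 of these 13 unadjusted p-values were below 0.05 (the smallest p that 5 against 5 mice can give is 0.0079). This test was run for these 13 genes only, so that no share over all genes stands beside that count.

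Jchain was higher in each old mouse than in any young mouse. This gene (chr5:88519809-88527891, minus strand, GRCm38) encodes the J chain that joins IgM pentamers and IgA dimers, and it is expressed by antibody-secreting cells. Its counts were 2, 2, 5, 3 and 2 in young mice and 16, 65, 68, 38 and 7 in old mice. The margin was small in places, since old mouse 5 exceeded young mouse 3 by only 2 counts. The mean normalized count was 2.80 ± 1.28 for the young and 38.7 ± 28.2 for the old aortae (n = 5 each), a ratio of 13.8 (exact permutation p = 0.0079). Jchain did not reach the filter on low counts, and edgeR without the filter gave a log2 fold change of 3.73 with an SE of 0.68 and a Benjamini-Hochberg adjusted p of 0.00618. This call held when each mouse was left out in turn and without young 3 and old 3 together, with adjusted p-values up to 0.0337.

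**Figure D1:**
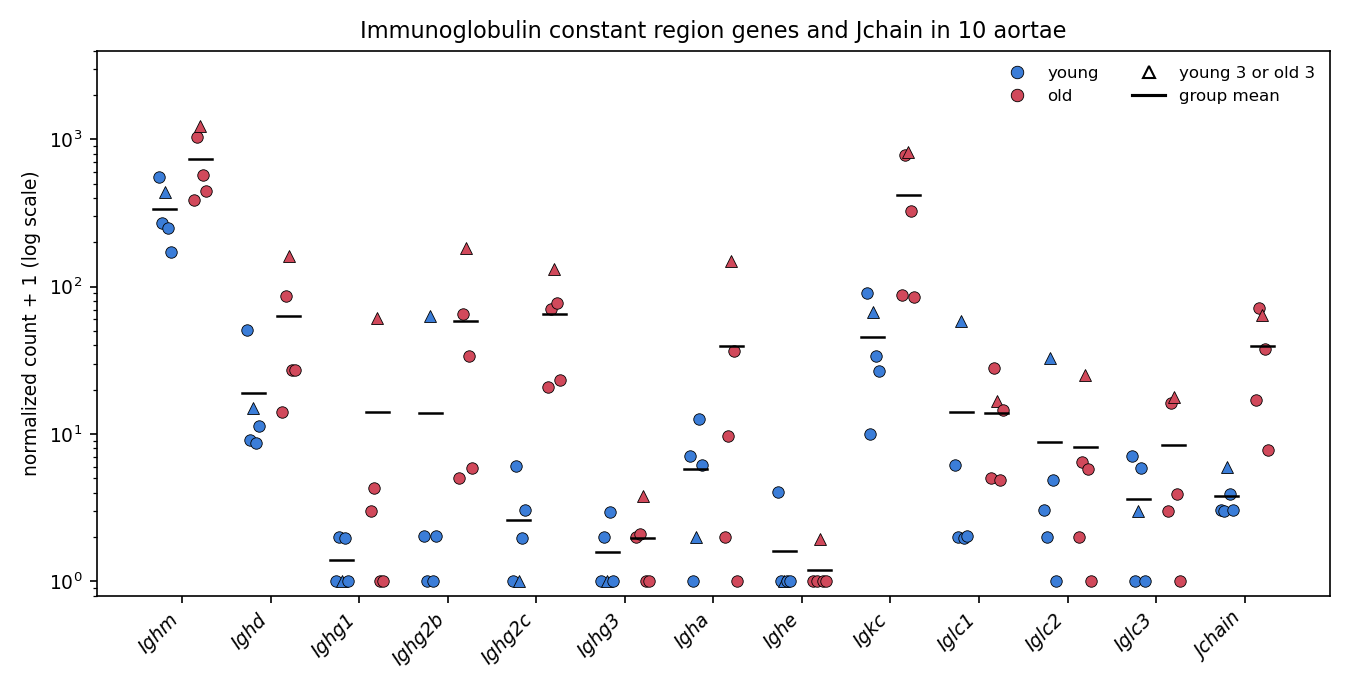
Normalized counts plus 1 (log scale) of the 12 immunoglobulin constant region genes with a count and of Jchain, with 1 point per mouse, young in blue and old in red, triangles for young 3 and old 3, and lines at the group means. The points of old and young mice separate fully for Ighg2c and Jchain, and young 3 is the highest young mouse for Ighg2b, Iglc1 and Iglc2.

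Among the light chains, the kappa constant gene Igkc (chr6:70726435-70726966, plus strand), which is part of every kappa light chain, had 88, 9, 67, 34 and 25 counts in young and 87, 723, 884, 336 and 86 counts in old mice. Old mice 2, 3 and 4 were far above the young, whereas old mice 1 and 5 fell just under young mouse 1. The mean normalized count was 44.9 ± 32.8 for the young and 421 ± 365 for the old aortae (n = 5 each; exact permutation p = 0.0238). edgeR gave a log2 fold change of 3.24 with an SE of 0.83 and an adjusted p of 0.0355, so that Igkc rose in old aortae. The call depended on which mice were used. The adjusted p was 0.0841, 0.0585, 0.0935 and 0.0792 without young 2, 3, 4 or 5, and 0.0723, 0.0798 and 0.0515 without old 2, 3 or 4. It was 0.0812 without the low-count filter and 0.167 with limma-voom. The direction was the same in all of these fits, with log2 fold changes between 2.84 and 3.65. With young 3 and old 3 both left out, the ratio of means was 8.14 and the exact permutation p was 0.0857.

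The lambda constant genes encode the less common light chain of the mouse, and whether their change differed from that of Igkc was not tested. Iglc1 had 5, 1, 58, 1 and 1 counts in young and 4, 25, 17, 4 and 14 counts in old mice. Iglc2 had 2, 1, 32, 4 and 0 counts in young and 1, 5, 26, 5 and 0 counts in old mice. Iglc3 had at most 6 counts in any young mouse and at most 18 in any old mouse, and Iglc4 had none. None of the lambda genes passed the test between ages, with exact permutation p-values of 0.984, 0.873 and 0.294 for Iglc1, Iglc2 and Iglc3. The reading rests on young mouse 3, which alone carried 92 of the 118 lambda constant counts of the young group. Without it, the ratio of old to young means of Iglc1 went from 0.979 to 6.37 (exact permutation p = 0.0476), and that of Iglc2 went from 0.915 to 4.11 (p = 0.333).

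The balance of the light chains therefore set young mouse 3 apart from all others. Kappa made up 42.1% of its light chain constant counts (67 of 159, 95% Wilson interval 34.7 to 49.9%). In the other young mice with at least 20 light chain counts, the kappa share was 87.1% in young 1, 77.3% in young 4 and 96.2% in young 5. In old mice 1 to 5 it was 92.6, 94.3, 93.5, 96.6 and 86.0%. The variable segments, which are counted separately, gave a similar picture, with a kappa share of 40.8% in young 3 (31 of 76) and of 81.5 to 97.4% in the old mice. Such intervals cover counting error only, because reads without molecular identifiers are not independent molecules.

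The heavy chain constant genes lie next to each other on chromosome 12, in the order in which class switching can reach them. Ighm (chr12:113418558-113422730, minus strand), the constant region of IgM, had 542, 269, 438, 260 and 166 counts in young and 390, 951, 1313, 594 and 457 counts in old mice. It was the most abundant antibody gene by count in all young mice and in all old mice, and 3 old mice exceeded the highest young mouse. The mean normalized count was 336.5 ± 155.5 for the young and 733 ± 374 for the old aortae (n = 5 each; exact permutation p = 0.0476). edgeR did not call the gene, with a log2 fold change of 1.13, an SE of 0.42 and an adjusted p of 0.120. The exact permutation p rose to 0.0952 without young 2, 4 or 5 or without old 2 or 3, to 0.0794 without old 4 and to 0.0635 without old 5. On a scale per kilobase of exon, Ighm stood at 178 ± 82.4 normalized counts at the young age and 389 ± 198 at the old age, and Igkc stood at 84.3 ± 61.7 for the young and 792 ± 685 for the old aortae (n = 5 each). Per kilobase, Ighm was above Igkc in each young mouse and in old 1 and old 5, and below it in old 2, 3 and 4.

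Ighd, the constant region of IgD, which naive B cells carry beside IgM, had 49, 8, 14, 8 and 10 counts in young and 13, 78, 171, 27 and 27 counts in old mice. Its log2 fold change was 1.79 with an SE of 0.77, and edgeR's adjusted p was 0.168. With single mice left out, the log2 fold change was between 1.05 without old 3 and 2.63 without young 1. Young mouse 1 lay above 3 of the old mice. Without it, the exact permutation p went from 0.183 to 0.0317.

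Of the IgG genes, Ighg2c separated the ages. C57BL/6 mice carry Ighg2c where other strains carry Ighg2a, and IgG2c is a class made in type I responses. Ighg2c (chr12:113285325-113288932, minus strand) had 0, 5, 0, 1 and 2 counts in young and 20, 64, 141, 79 and 23 counts in old mice. All old mice lay above all young mice. The mean normalized count was 1.61 ± 2.09 for the young and 63.9 ± 45.8 for the old aortae (n = 5 each; exact permutation p = 0.0079), and edgeR gave a log2 fold change of 5.22 with an SE of 0.79 and an adjusted p of 0.00186. Ighg2c remained called under all 19 alternative settings, at an adjusted p of 0.00944 or less. It was above every young mouse in old 1 and old 5 too, where the summed antibody counts were within the young range.

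Ighg2b, its near neighbour, had 1, 0, 62, 0 and 1 counts in young and 4, 59, 196, 34 and 5 counts in old mice. Here young mouse 3 reached the level of old mouse 2, and the exact permutation p was 0.175. Without young 3 the ratio of means went from 4.52 to 113 and the exact permutation p to 0.0159, the smallest that 4 against 5 mice can give. Without old 3, which had 196 of the 298 old counts, the ratio was 2.07 (exact permutation p = 0.349). Ighg1 was detected mainly in old mouse 3, with 65 of its 72 counts. Ighg3 had 8 counts in all and Ighe had 4, so that no difference was detectable at this depth. The Ighg2b and Ighg2c genes share much of their sequence, with 94.2% identity over the 330 bases of their CH2 exons, but their hinge exons differ, and these are printed 5′ to 3′ because they show how far reads can tell the genes apart (GRCm38, minus strand, Ighg2b at chr12:113307261-113307326 and Ighg2c at chr12:113288263-113288325).
Ighg2b hinge exon: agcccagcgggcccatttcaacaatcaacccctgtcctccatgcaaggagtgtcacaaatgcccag
Ighg2c hinge exon: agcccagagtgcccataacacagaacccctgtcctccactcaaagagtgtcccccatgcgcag
Of the 50-base windows of the Ighg2c exons, 5.5% also occurred in transcripts of another gene, and 4.1% of those of Ighg2b did. Among the old mice both genes were highest in old 3 and lowest in old 1 and old 5, whereas young 3 had 62 counts of Ighg2b and 0 of Ighg2c.

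Igha, the constant region of IgA, had 6, 0, 1, 12 and 5 counts in young and 1, 8, 159, 37 and 0 counts in old mice. Old mouse 3 held most of the counts, 3 old mice lay within the young range, and the exact permutation p was 0.294. The ratio of means was 8.12, with 2.38 without old 3 and 12.6 without young 4. As a share of all heavy chain constant counts, Ighm (IgM) made up 85.0 to 94.7% in young mice and 90.5, 81.7, 64.1, 77.0 and 89.3% in old mice 1 to 5. Such shares describe counts on constant region genes, and whether the counts came from rearranged transcripts was not tested. The switched classes (IgG, IgA and IgE) made up 1.66, 2.46, 12.2, 5.63 and 4.35% in young mice 1 to 5 and 6.50, 11.6, 27.6, 19.5 and 5.47% in old mice 1 to 5. Young mouse 3 was thus above old mice 1, 2 and 5 in this share, and the other young mice were below old mice 1 to 4.

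**Figure D2:**
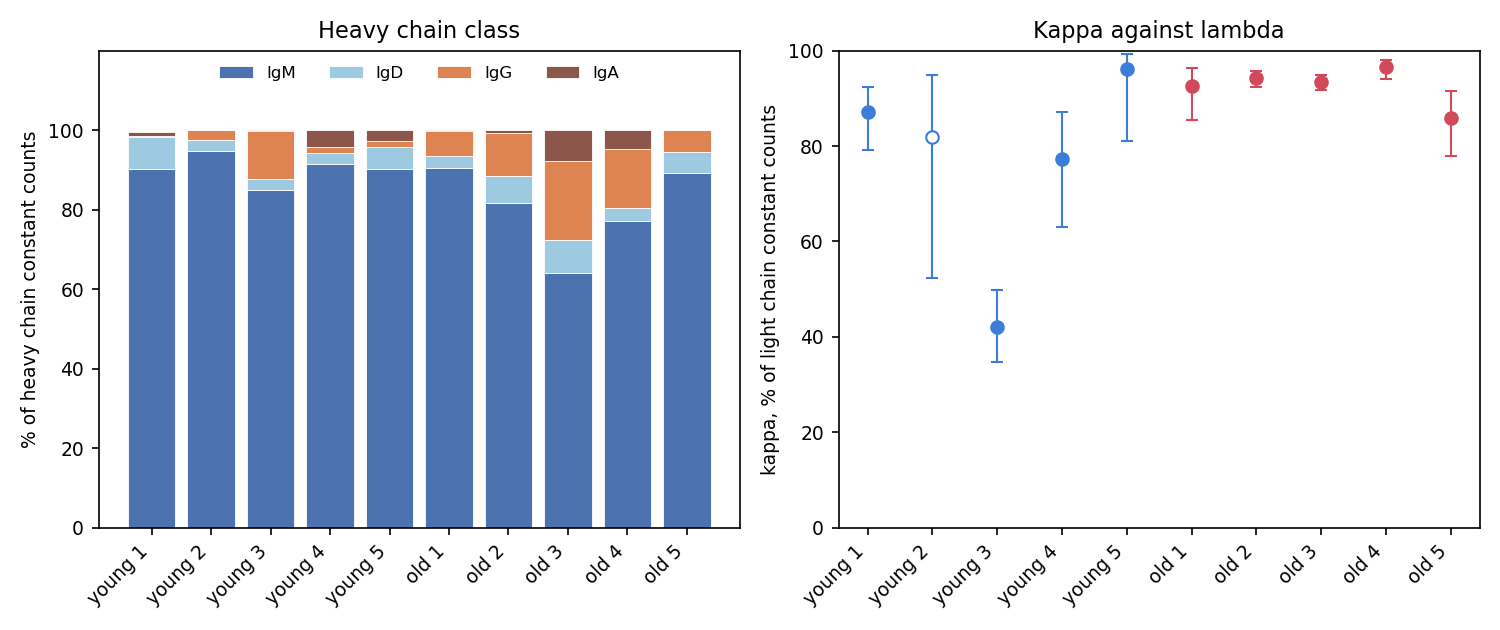
Left, the share of each class among heavy chain constant counts (%) in each mouse. Right, the kappa share of light chain constant counts (%) with 95% Wilson intervals, young in blue and old in red, with an open point for the library with under 20 counts. Ighm (IgM) took the largest share of these counts in each mouse, with its lowest share of 64.1% in old 3. The kappa share was lowest in young 3 at 42.1%.

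The ratio of variable to constant counts of the heavy chain varied widely between mice. For every 100 heavy chain constant counts there were 0.832, 0, 7.77, 3.87 and 2.72 variable segment counts in young mice 1 to 5, and 6.26, 8.93, 7.76, 9.08 and 1.76 in old mice 1 to 5. Young 2 had 0 variable segment counts beside 284 constant counts, where 3 counts would be the limit of detection. Young 3 lay above old 1, old 3 and old 5, and old 5 lay below young 3, 4 and 5. For the kappa chain there were 40.9, 46.3, 41.2 and 52.0 variable counts per 100 Igkc counts in young 1, 3, 4 and 5 (young 2 had too few counts to be read) and 42.5, 35.8, 37.7, 46.4 and 25.6 in old mice. The kappa variable counts summed to 36, 6, 31, 14 and 13 in young and 37, 259, 333, 156 and 22 in old mice. The heavy variable counts summed to 5, 0, 40, 11 and 5 in young and 27, 104, 159, 70 and 9 in old mice. The ratio of old to young mean normalized counts was 7.97 for the kappa and 6.00 for the heavy variable segments, and 7.05 and 10.4 with young 3 and old 3 left out. With single mice left out, the kappa ratio was 6.10 to 10.1 and the heavy ratio 4.46 to 14.0, the highest without young 3.

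Variable segments annotated as functional carried nearly all of these counts. Of 217 functional rows 139 had a count, whereas of 129 pseudogene rows 3 did, with 5 of 1417 variable counts. Of the 142 segments with a count, 66 were seen in a young mouse and 135 in an old mouse, 51 were seen in 1 library only, and none was seen in all 5 young mice. The young group had 212 variable counts and the old group 1205, so that segments seen at 1 age only are described by depth as well as by age. Segments were used along the whole length of both loci. Among the functional kappa segments, 35 of the 50 nearest to Igkc and 34 of the 50 farther away had a count, and among the functional heavy segments 37 of the 57 nearer and 30 of the 57 farther ones did. By family, Ighv1, with 47.4% of the functional heavy segments, held 50.1% of the heavy variable counts of the old aortae. Igkv4, with 26.0% of the functional kappa segments, held 20.1% of the kappa variable counts, but 118 of its 162 counts came from old 3. Its counts were 0 of 37, 6 of 259, 118 of 333, 35 of 156 and 3 of 22 in old mice 1 to 5, where 3 counts are the limit of detection in old 1.

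Which segments led differed from mouse to mouse. The ends of the variable exons of the segments the counts turn on are printed here as RNA-sense DNA, 5′ to 3′, from the reference transcripts (GRCm38). They run up to the end of the exon, where the joining segment is attached, and the capitals mark the last in-frame cysteine codon, which closes the framework and opens the third complementarity-determining region.
Igkv3-2: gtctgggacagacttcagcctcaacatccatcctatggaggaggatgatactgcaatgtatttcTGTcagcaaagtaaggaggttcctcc
Igkv4-53: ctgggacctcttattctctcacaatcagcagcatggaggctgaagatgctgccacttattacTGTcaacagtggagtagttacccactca
Igkv14-126: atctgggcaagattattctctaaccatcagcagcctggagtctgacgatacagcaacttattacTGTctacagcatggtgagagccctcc
Igkv1-110: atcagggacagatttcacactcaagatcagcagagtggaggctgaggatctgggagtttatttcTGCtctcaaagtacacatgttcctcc
Ighv11-2: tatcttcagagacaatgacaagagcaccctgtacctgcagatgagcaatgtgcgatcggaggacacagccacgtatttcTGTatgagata
Ighv14-4: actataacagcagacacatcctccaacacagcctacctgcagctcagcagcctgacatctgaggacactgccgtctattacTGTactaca
Ighv1-82: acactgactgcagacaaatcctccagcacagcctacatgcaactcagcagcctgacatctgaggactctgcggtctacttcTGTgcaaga
These 90-base stretches lie at chr6:70698978-70699067 (Igkv3-2, plus strand), chr6:69648824-69648913 (Igkv4-53, minus), chr6:67896553-67896642 (Igkv14-126, plus), chr6:68271178-68271267 (Igkv1-110, plus), chr12:114048241-114048330 (Ighv11-2, minus), chr12:114176438-114176527 (Ighv14-4, minus) and chr12:115952538-115952627 (Ighv1-82, minus). The rearranged antibody of a B cell can differ from the reference here by somatic mutation, which the counts do not show.

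Igkv3-2 had the most counts of all variable segments, and nearly all came from old mouse 2. It had 1 count in young 1 and none in the other young mice, and 1, 91, 4, 6 and 1 counts in old mice. In old 2 it made up 35.1% of the kappa variable counts (91 of 259, 95% Wilson interval 29.6 to 41.1%). edgeR without the low-count filter gave a log2 fold change of 6.06 and an adjusted p of 0.180, so that the segment was not called.

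Other segments led in other mice. Igkv4-53 had 38 of its 44 counts in old mouse 3, which was 11.4% of the kappa variable counts there, and 5 in young 1. Igkv5-39 had 33 of its 43 counts in old 3 too. Igkv10-96 was shared more widely, with 1, 23, 32, 5 and 1 counts in old mice and 1 count each in young 2 and young 4. In old mouse 4, Igkv12-44 and Igkv4-72 led with 19 counts each, or 12.2% of 156. In old mouse 5, Igkv1-110 led with 6 of 22 counts.

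Of the heavy variable segments, Ighv1-53 led in old 2 with 16 of 104 counts (15.4%), Ighv5-6 in old 3 with 18 of 159 (11.3%) and Ighv9-3 in old 4 with 13 of 70 (18.6%). Ighv1-55 and Ighv11-2 led in old 1 with 6 of 27 counts each, and Ighv1-80 had 4 of the 9 counts of old 5. Ighv1-26 had 14 counts in old 2, 12 in old 3 and 1 in old 4, and no count in young mice. Ighv3-6 had 5, 10, 3 and 2 counts in old mice 1 to 4 and 2 counts in young 3. The mean share of the leading segment was 16.9 ± 4.64% (SD, n = 4 old mice with at least 20 counts) for the heavy chain and 24.8 ± 12.5% (n = 5) for the kappa chain. When counts were summed over the old mice first, the leading segment took only 7.32% of the heavy and 12.8% of the kappa variable counts.

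**Figure D3:**
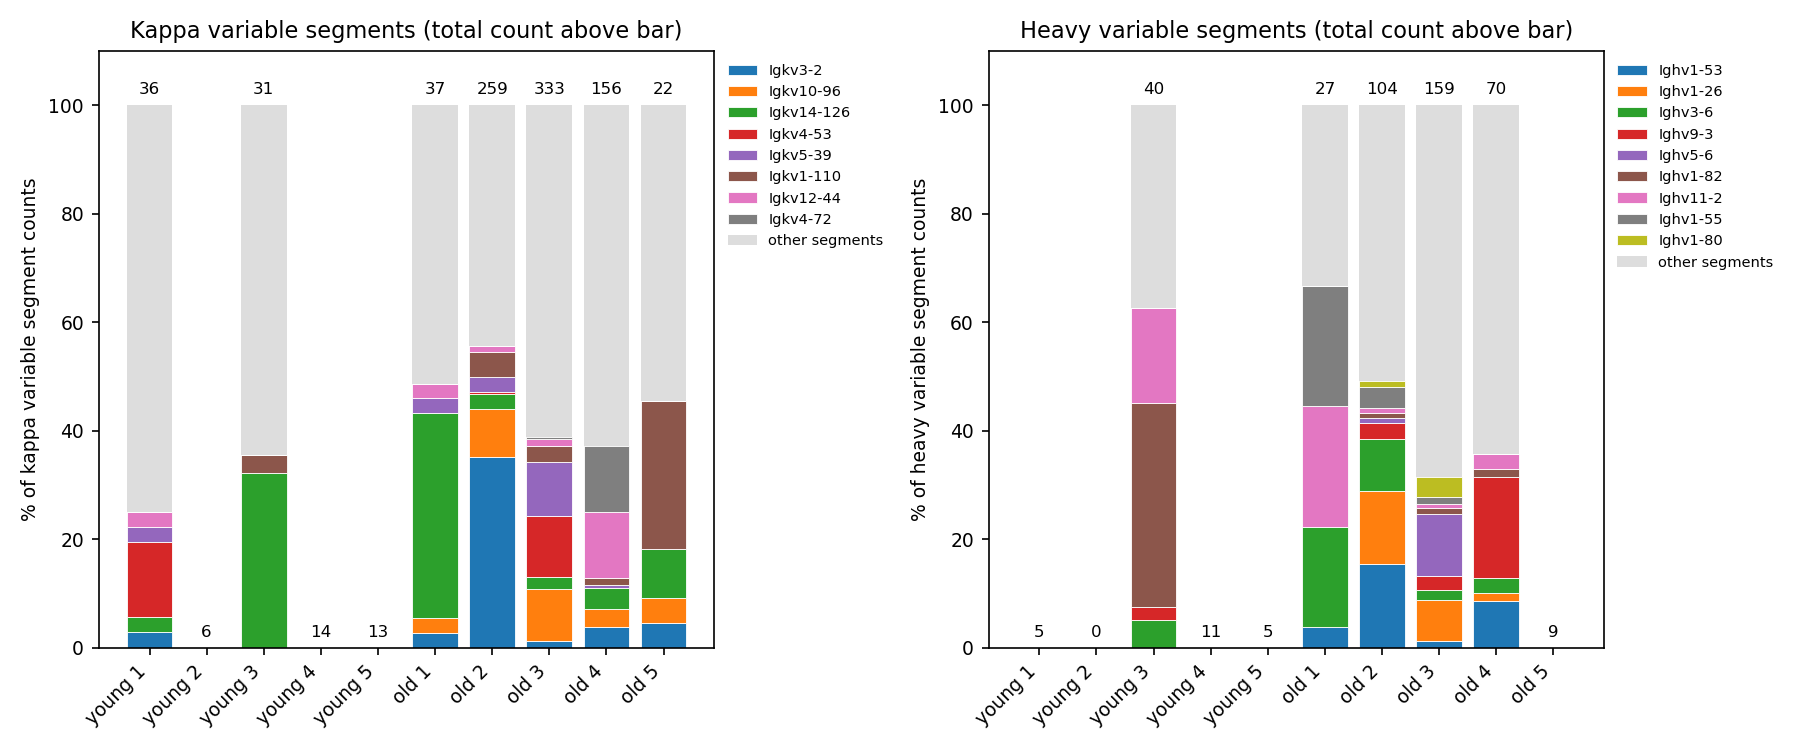
Share of kappa (left) and heavy (right) variable segment counts (%) taken by the named segments in each mouse, with the total count printed above each bar or, for libraries under 20 counts, above the axis without a bar. A different segment led in most mice, such as Igkv3-2 in old 2 (35.1%), Igkv14-126 in old 1 and young 3, and Ighv1-82 in young 3 (37.5%).

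Evenness was also described by the chance that 2 variable counts drawn from a library name the same segment. For the kappa chain this was 4.76% in young 1, 11.0% in young 3, and 15.0, 14.8, 5.05, 6.13 and 9.09% in old mice 1 to 5. For the heavy chain it was 17.2% in young 3 and 11.7, 6.59, 4.10 and 8.28% in old mice 1 to 4. The library with the most counts, old 3, was thus the most even for the heavy chain. It showed 53 kappa and 45 heavy segments.

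Igkv1-110 and Ighv14-4 were the variable segments that edgeR called higher in old aortae in the fit without the low-count filter. Igkv1-110 had 0, 0, 1, 2 and 0 counts in young and 0, 12, 10, 2 and 6 counts in old mice (log2 fold change 3.08, SE 0.91, adjusted p = 0.0394 by edgeR). This call was lost without young 1, 2, 3 or 5 or without old 2, 3 or 5, with adjusted p-values between 0.0548 and 0.122. Ighv14-4 had no count in young mice and 0, 4, 3, 9 and 2 counts in old mice (edgeR adjusted p = 0.0185, and 0.0741 without old 4). It entered the set through its counts in old mice alone. Against the limit of 3 counts over the young group, its mean normalized count was at least 5.91-fold higher in old aortae. Of the 50-base windows of Igkv1-110, 50.9% also occurred in transcripts of other genes, and 19.1% of those of Ighv14-4 did, so that reads of related segments may have been counted elsewhere or not at all.

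Igkv14-126 and Ighv11-2 stood out because they were high in the same mice, and they are described after their values were seen. The germline pair is known from the B-1 cells whose IgM binds phosphatidylcholine. Igkv14-126 had 1, 0, 10, 0 and 1 counts in young and 14, 7, 7, 6 and 2 counts in old mice, and led the kappa segments in young 3 (32.3% of 31 counts) and in old 1 (37.8% of 37 counts). Ighv11-2 had 0, 0, 7, 0 and 0 counts in young and 6, 1, 1, 2 and 0 counts in old mice, with its highest counts in young 3 and old 1 as well. Bulk counts do not show which heavy and light chains were in the same cell, and 38.6% of the 50-base windows of Ighv11-2 occurred in other transcripts, whereas none of those of Igkv14-126 did. Neither segment was called between the ages (edgeR without the filter, adjusted p = 0.344 for Igkv14-126 and 0.852 for Ighv11-2).

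The lambda variable segments were a feature of young mouse 3. Iglv1 had 0, 0, 22, 2 and 2 counts in young and 0, 6, 3, 4 and 5 counts in old mice, and Iglv2 had 1, 0, 23, 0 and 0 in young and 0, 1, 0, 2 and 0 in old mice. The pair is nearly identical, with 9 of 305 bases different (97.0% identity). The ends of their exons are printed to show how few bases separate them, with the 3 differing bases in capitals (GRCm38, minus strand, Iglv1 at chr16:19085017-19085106 and Iglv2 at chr16:19260401-19260490).
Iglv1: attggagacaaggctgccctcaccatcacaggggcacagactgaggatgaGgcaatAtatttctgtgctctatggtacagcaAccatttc
Iglv2: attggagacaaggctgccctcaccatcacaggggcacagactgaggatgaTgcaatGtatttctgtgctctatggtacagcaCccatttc
Counts between the pair may be divided imperfectly for this reason. Summed with Iglv3, the lambda variable counts were 45 in young 3 and at most 10 in any other mouse. Young 3 also led in Ighv1-82, with 15 of the 19 counts of that segment and 37.5% of its own 40 heavy variable counts. The joining segments are short and had few counts. Ighj1, Ighj2, Ighj3 and Ighj4 had 5, 9, 4 and 4 counts and Igkj4 and Igkj5 had 2 and 3 counts in all libraries, Iglj3 had 1, and the single diversity segment with a count, Ighd4-1, had 1.

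The antibody counts were compared with lists of cell markers. Of 19 B cell genes, 9 were tested and only Blnk, an adaptor of the B cell receptor that macrophages also express, was called (higher, log2 fold change 1.44, edgeR adjusted p = 0.00369). Blk, a kinase of the B cell receptor, did not reach the filter and had a log2 fold change of 1.99 and an adjusted p of 0.0198 in the edgeR fit without it. The median log2 fold change of the 9 was 1.29, beside 0.003 for all tested genes. Without old 3, the median of the same 9 genes was 0.47. Most genes of the list other than Ebf1 had low counts. Ms4a1, a surface protein of B cells, had 16, 2, 11, 3 and 6 counts in young and 4, 17, 54, 14 and 7 counts in old mice. The summed normalized count of 18 of these genes was 155.7 to 423 in young mice and 315, 495, 1336, 375 and 294 in old mice 1 to 5. The ratio of the old to the young mean of this sum was 2.21, and 1.45 without old 3. Ebf1, which had 1599 to 2204 counts in each mouse, was left out of this sum.

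The antibody genes differed in how they stood to these B cell genes. The normalized count of Ighm per unit of the summed B cell genes was 1.09 to 1.44 in young mice and 1.24, 2.09, 0.916, 1.53 and 1.51 in old mice 1 to 5, so that the ages overlapped. The normalized count of Igkc per unit of the same sum was 0.0481 to 0.218 in young mice and 0.276, 1.59, 0.616, 0.864 and 0.285 in old mice 1 to 5, so that each old mouse lay above each young mouse in this ratio. Old 2 had 723 counts of Igkc with 17 of Ms4a1, while old 3 had 884 with 54. Young 1 had more of the B cell genes than old mice 1, 4 and 5, but 2 counts of Jchain.

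**Figure D4:**
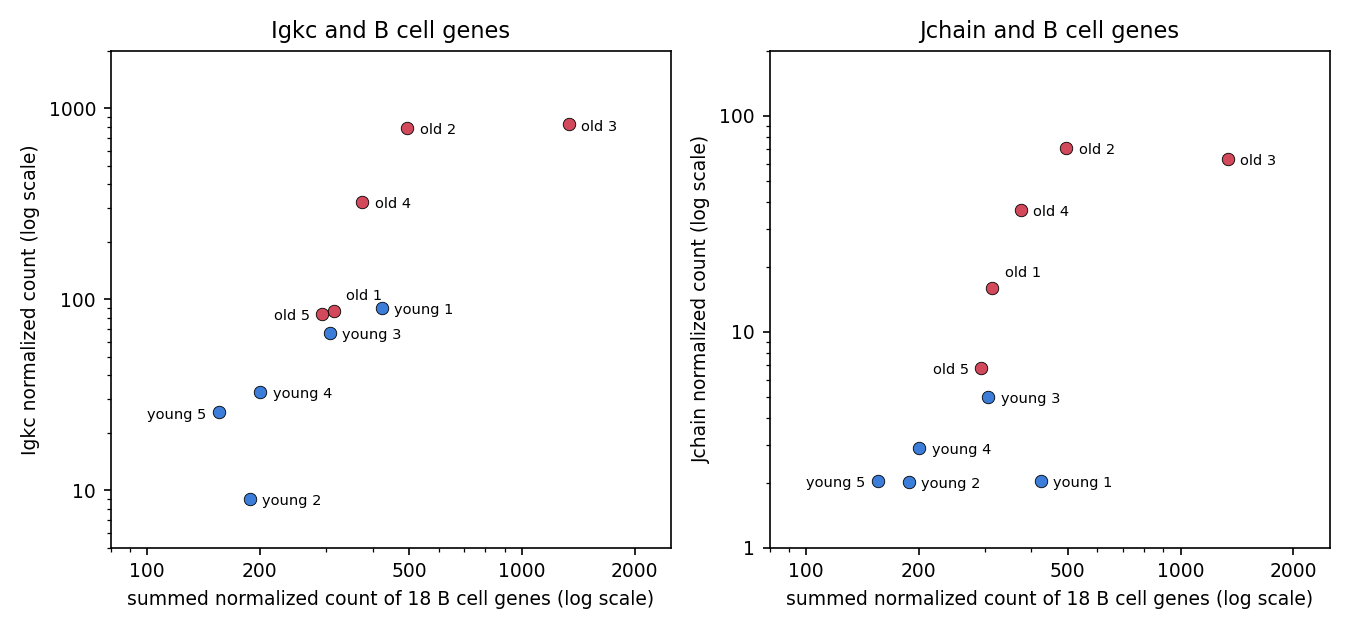
Normalized counts of Igkc (left) and Jchain (right) against the summed normalized count of 18 B cell genes, both on log scales, with 1 point per mouse, young in blue and old in red. Young 1, with a B cell sum of 423, had a Jchain count of 2.05, whereas old 4, with a sum of 375, had 36.6.

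Of 18 plasma cell genes, 14 were tested and none was called higher. The log2 fold changes of the 14 ran from -0.62 for Irf4 to 1.03 for Slamf7, and 8 were positive. Sdc1, the plasma cell marker syndecan-1, which other cells of the vessel wall also express, was called lower (log2 fold change -0.42, edgeR adjusted p = 0.0209, and 0.0509 without old 5), and the median of the list was 0.05. Genes of this list that serve secretion in any cell reached high counts, such as Xbp1 and Txndc5, with 2621 counts or more in each mouse. Tnfrsf17, the receptor for plasma cell survival signals, had 9, 3, 4, 3 and 1 counts in young and 3, 11, 24, 7 and 6 counts in old mice, and Mzb1, which aids antibody assembly, had 0 to 3 counts in every mouse. Prdm1, Tnfrsf17, Pou2af1 and Mzb1 did not reach the filter. In the fit without it, edgeR gave them log2 fold changes of 1.41, 1.30, 1.19 and -1.34 (adjusted p = 0.0849, 0.192, 0.559 and 0.499). Of the 9 genes of V(D)J recombination and class switching, 1 was tested and none was called, and Rag2, Igll1 and Vpreb2 had no count.

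Genes of the surroundings of B and plasma cells included Cxcl12, a chemokine that retains plasma cells, and Tnfsf13b, which encodes the B cell survival factor BAFF. Of 12 such genes, 5 were tested and these 2 rose in old aortae. Cxcl12 had a mean normalized count of 4262 ± 357 for the young and 6719 ± 910 for the old aortae (log2 fold change 0.66, edgeR adjusted p = 0.000829), and Tnfsf13b had 226 ± 35.1 for the young and 437 ± 114 for the old aortae (0.96, adjusted p = 0.00329; n = 5 each). Of 10 receptors for immunoglobulin, 7 were tested and 4 rose. These were the Fc gamma receptors Fcgr1 (log2 fold change 0.98, adjusted p = 0.0142), Fcgr2b (0.53, 0.0304) and Fcgr3 (0.70, 0.00186) and the shared signalling chain Fcer1g (0.82, 0.0151). Fcer1a, the IgE-binding chain, did not reach the filter and was called in the fit without it (2.18, 0.0106). The calls of Cxcl12, Tnfsf13b and the tested receptors by edgeR held with each mouse left out, except that of Fcgr2b, which was lost without young 2, 3, 4 or 5 or without old 2, 3 or 4 (adjusted p up to 0.0784).

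Markers of other tissue that a dissected aorta may hold were counted as well. Of 8 lymph node stroma genes 3 were tested and none was called, Ccl21a had no count, Glycam1 had 2 counts in old 2 alone, and the summed normalized count was 387 to 539 in young mice and 442, 623, 694, 483 and 554 in old mice 1 to 5. Old 2 and old 3, which had the most antibody counts, and old 5 thus lay above every young mouse in this sum. Most of the sum was Pdpn, with a mean normalized count of 337 ± 48.0 for the young and 418 ± 66.2 for the old aortae. Ccl19 had 63.7 ± 10.7 and 60.7 ± 15.5, and Cxcl13 had 32.9 ± 21.5 and 67.0 ± 26.3 (n = 5 each). Cr2, a gene of this list that B cells also express, had 34 counts in old 3 and at most 8 in any other mouse. Of 11 T cell genes 4 were tested and Cd3g (log2 fold change 2.78, edgeR adjusted p = 0.0121) and Cd4 (1.95, 0.00269) rose, while Cd3e was called in the fit without the filter (3.37, 0.000374). Of 10 macrophage genes, all tested, Adgre1, Cd68, C1qa, C1qb and C1qc rose, by 0.65 to 0.83 on the log2 scale. With single mice left out, Cd68 stayed called, while Adgre1 was lost without young 2, 4 or 5 and the C1q genes without young 2, 3, 4 or 5 or old 2 (edgeR adjusted p up to 0.0837). None of 8 adipocyte genes was called, 7 of them had a negative log2 fold change in old aortae (median log2 fold change -0.92), and their summed normalized count was 6911 to 12701 in young mice 2 to 5, 23088 in young 1 and 5100 to 10837 in old mice. Young 1 was also the highest young mouse for Ighm, Ighd and the B cell genes, and the part of adipose tissue in this was not tested. None of 5 red blood cell genes was called, and their sums overlapped between the ages. Of the vessel wall lists, Smtn rose among 7 smooth muscle genes, Tek fell among 6 endothelial genes, and Lum rose while Col1a1 and Pi16 fell among 5 fibroblast genes. With single mice left out, Smtn was lost without young 3, young 5 or old 5 and Tek without young 1, 3 or 5 or old 1, 3 or 5 (edgeR adjusted p up to 0.0859). The part of any of these cells in the antibody counts was not tested.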

How the data were processed

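Bulk RNA-seq libraries (TruSeq Stranded mRNA) of 10 aortae were used, 1 per mouse. The authors removed reads under the length limit with fastp 0.20.0, aligned the rest with STAR 2.7.0f to GRCm38, and assigned them to genes with featureCounts of Subread 1.6.4. The deposited table holds the resulting whole-number counts of 55453 gene symbols, not normalized. How strand and reads with several alignments were handled is not given in the sources used here. Since variable segments resemble each other, this can lower or shift their counts.

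Genes were filtered by filterByExpr at its defaults, and old was tested against young with the quasi-likelihood test of edgeR 4.0.16 (R 4.3.3, TMM, robust, Benjamini-Hochberg, called at an adjusted p below 0.05) over the whole table. Normalized counts were obtained with the size factors of DESeq2 1.42.0. For 13 genes an exact two-sided permutation test over the 252 assignments of mice was run. Intervals of shares are 95% Wilson intervals, and shares were read with at least 20 counts in the denominator. For 20 pairs of libraries within a group, chi-square over its degrees of freedom was 8.61 to 64.1, where counting error gives about 1. Positions, exon sequences and shared 50-base windows came from the GENCODE M21 transcripts of GRCm38, to which all 394 symbols matched, 2 of them to several genes. The code was tested on simulated data.

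The members, the lists of marker genes and the tests were chosen with earlier results of these data known. Named were all constant region and joining genes with a count, Jchain, called members, the 5 heavy, 5 kappa and 2 lambda variable segments with the most counts, the leading heavy and kappa segment of each old mouse, and called list genes. The lists covered B cells, plasma cells, V(D)J recombination and class switching, immunoglobulin receptors, the B and plasma cell niche, T cells, macrophages, lymph node stroma, adipocytes, red blood cells, smooth muscle, endothelium and fibroblasts. Alternatives were another tool (DESeq2, limma-voom), scaling, filter or threshold, medians in place of means, a replicate block, and leaving out mice. Leaving out young 3 and old 3 together, old 3 for the B cell list, and single mice in the fit without the filter was chosen after seeing the data.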

Additional observations from a re-analysis of the deposited data

Results flagged for a closer look

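Within the groups of 5 mice, 44 group and measure combinations were checked for a value that stood far from the rest, and 13 did, by a gap of more than 0.71 of the group's range. Chance alone picks out about 1 in 20 such groups when values are normally distributed, and the rate for sparse counts such as these was not measured. The measures also share libraries and reads.

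Young mouse 3 accounted for 7 of the 13. Its normalized count was 61.8 for Ighg2b and therefore also 61.8 for the sum of the IgG genes, 57.8 for Iglc1 and 31.9 for Iglc2. Its summed normalized count was 91.7 for the lambda constant genes, 44.9 for the lambda variable segments and 39.9 for the heavy variable segments. Old mouse 3 accounted for 4, with a normalized count of 148 for Igha, 60.6 for Ighg1 and 24.2 for Iglc2, and a summed normalized count of 1336 for the B cell genes other than Ebf1. Young mouse 1 stood apart in Ighd, with a normalized count of 50.1, and in Ighe, with 3.07, which came from 3 counts. Why these mice differed was not tested.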

How the results depend on the processing

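Of the immunoglobulin genes, edgeR called 2 (Ighg2c and Igkc), and the number changed with the processing. It was 1 at an adjusted p below 0.01, with limma-voom, and without young 3 and old 3 together, and 4 without the low-count filter. With 1 mouse left out it was 1 to 3. Over the whole table, 1676 genes were called, and 658 at an adjusted p below 0.01. The replicate numbers of old and young mice did not pair them (same-numbered deviations correlated at -0.30 to 0.13), and a fit with the replicate block called 1 immunoglobulin gene and 1261 genes of the whole table, with Igkc at a log2 fold change of 2.91.

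The sign of the lambda genes was not fixed. The ratio of old to young Iglc1 was 0.979, but 13.3 as a ratio of medians, 6.37, 1.15 and 1.15 without young 3, old 1 or old 4, 0.707 without old 2, and 6.01 without young 3 and old 3. For Iglc2 it was 0.915, but 2.36 as a ratio of medians, 4.11, 1.11 and 1.14 without young 3, old 1 or old 5, 0.363 without old 3, and 1.63 without young 3 and old 3. The ratio of the summed lambda constant counts was 1.16, and fell to 0.947, 0.939, 0.945 and 0.851 without young 2, young 5, old 2 or old 3, while it was 4.22 without young 3. The share of the leading heavy segment was 16.9% as a mean over old mice and 7.32% when their counts were summed. The cause of these shifts was not tested.

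Of the results a comparison rests on, 91 alternative values kept their side and direction and 10 moved as given here; of single genes and sums, 609 kept them, 80 were no longer past the threshold, 3 newly passed it, 14 turned direction (the lambda values given here) and 7 moved. Among called list genes, Adgre1 was no longer called under 4 of 19 alternatives, left-out mice included, and C1qa, C1qb and C1qc under 7 each. The calls of Fcgr2b and Tek were lost under 9 each, of Smtn under 5, of Sdc1 under 2 and of Pi16 under 1. No variable segment passed the low-count filter, and differences of a few counts were not detectable at this depth.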
